A study of Mus musculus with 19 samples.

Results

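The 10 genes described here encode transcription factors and splicing factors that specify epithelial cells: the grainyhead-like genes Grhl1, Grhl2 and Grhl3, the zinc-finger genes Ovol1 and Ovol2, the Ets genes Ehf, Elf3 and Spdef, and the epithelial splicing regulators Esrp1 and Esrp2. They were taken by name, and all 10 were found in both deposited expression tables, each of which lists 23284 genes. The study asked whether mouse fibroblasts can be turned into prostate tissue, and sequenced RNA of 19 samples. The first table holds 5 renal grafts, 6 prostates and 6 samples of mouse embryonic fibroblasts (MEFs), and the second, normalized separately, holds 2 more renal grafts. Each graft was made of induced mouse epithelial cells, C57BL/6 by label, recombined with rat urogenital mesenchyme and grown for 6 weeks in nude mice. By the study's methods the epithelial cells came from fibroblasts infected with retroviruses carrying human OCT4, SOX2, KLF4 and c-MYC, the grafts lay under the kidney capsule of male hosts given testosterone, and some grafts also carried further factors on lentiviruses. The labels are the same for all 7 grafts. The study counts 5 sequenced grafts with these factors and 2 without, and lists the 5 grafts of the first table as carrying them. This leaves FS022 and FS023, the grafts of the second table, as the 2 without. The prostates were dissected from C57BL/6 mice and have the label 6 weeks. The MEFs were C57BL/6 fibroblasts of mid-gestation embryos (E13.5, the embryonic day by label) and by label heterozygous for an engineered allele. By the study's methods MEFs came from embryonic limbs, littermates of both sexes were pooled, and cells carrying blood, endothelial or EpCAM surface markers were sorted out. The study calls the 6 prostate samples independent. Nothing in the labels says which grafts or MEF samples came from separate animals or cultures, so p-values measure the spread between these samples, which may be technical.

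Grainyhead-like proteins bind DNA as dimers and switch on genes of epithelial junctions; Grhl2 is closely tied to maintaining the epithelial state, and Grhl3 to forming the skin barrier and closing the neural tube. Ovol1 and Ovol2 are repressors that hold back genes of the mesenchymal program, among them Zeb1 and Zeb2, which in turn repress epithelial genes. Ehf, Elf3 and Spdef belong to the epithelium-specific branch of the Ets family, and Spdef is also called prostate-derived Ets factor. Esrp1 and Esrp2 are RNA-binding proteins that favour the epithelial choice of exons in transcripts such as those of Fgfr2 and Cd44.

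On the mouse build mm9 (GENCODE M1) all 10 are annotated as protein-coding genes. Grhl1 lies at chr12:25257152-25302256, Grhl2 at chr15:37162791-37293324 and Grhl3 at chr4:135097803-135129545. Ovol1 lies at chr19:5549137-5560575 and Ovol2 at chr2:144130911-144157882. Ehf is at chr2:103103590-103143435, Elf3 at chr1:137150151-137155049 and Spdef at chr17:27851297-27865896. Esrp1 is at chr4:11259080-11313930 and Esrp2 at chr8:108654219-108660874. The library kit does not mark the strand, so reads of a gene and of an overlapping gene on the other strand cannot be told apart, and the exons of 5 of the 10 genes share bases with exons of another annotated gene. For Grhl2, Ovol2, Elf3 and Esrp1 that other gene is not a row of the first table. Esrp2 shares 219 exon bases with the end of Nfatc3, a transcription factor gene active in fibroblasts, and 119 with the lincRNA gene 1810019D21Rik, both on the opposite strand.

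RefSeq promoters on build GRCm38.p6 could be matched for 5 of the 10 genes, with 6 start sites among them. The 250 bases before the start are shown for 4 of these genes, Elf3 and Grhl3 because they were higher in grafts than in prostate, and Spdef and Grhl1 (its first start site) because they were lower. Capitals mark the E-box letters CAGGTG and CAGGTA, to which repressors of the Snail and Zeb families bind, on either strand (CACCTG and TACCTG when on the other one).
Elf3, chr1:135258473-135258722, minus strand: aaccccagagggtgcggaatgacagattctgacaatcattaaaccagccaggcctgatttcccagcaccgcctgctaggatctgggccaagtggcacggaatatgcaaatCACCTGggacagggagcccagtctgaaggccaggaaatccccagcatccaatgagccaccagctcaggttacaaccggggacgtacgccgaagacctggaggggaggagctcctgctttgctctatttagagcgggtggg
Grhl3, chr4:135573633-135573882, minus strand: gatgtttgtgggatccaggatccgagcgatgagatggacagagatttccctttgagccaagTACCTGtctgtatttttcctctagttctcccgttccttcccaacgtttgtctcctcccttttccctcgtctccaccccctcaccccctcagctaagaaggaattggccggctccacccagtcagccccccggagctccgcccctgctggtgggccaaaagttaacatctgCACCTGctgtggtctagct
Spdef, chr17:27728952-27729201, minus strand: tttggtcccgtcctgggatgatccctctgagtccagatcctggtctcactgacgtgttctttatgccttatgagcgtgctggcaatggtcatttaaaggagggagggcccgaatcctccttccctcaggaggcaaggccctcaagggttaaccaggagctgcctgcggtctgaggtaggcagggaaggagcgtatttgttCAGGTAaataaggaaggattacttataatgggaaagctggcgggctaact
Grhl1, chr12:24572037-24572286, plus strand: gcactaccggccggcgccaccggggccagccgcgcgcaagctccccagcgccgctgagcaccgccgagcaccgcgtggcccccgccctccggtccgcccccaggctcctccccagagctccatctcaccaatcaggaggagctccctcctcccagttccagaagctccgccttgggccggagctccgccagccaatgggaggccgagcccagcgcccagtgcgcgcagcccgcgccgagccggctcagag
Counting bases before the start as negative, CAGGTG was found at -140 in Elf3 and at -19 in Grhl3, and 17.2% of all 32851 promoters of this length hold it. CAGGTA was found at -189 in Grhl3 and at -50 in Spdef, against 10% of all promoters. Of the other letters searched on both strands, the Ets core GGAAGT (in 19.7% of all promoters) was found in Ovol2 alone among the 6, at position -149. The grainyhead letters AACCNGTT (1.79%) and the Ovol letters CCGTTA (2.18%) were found in 0 of the 6. These are matches of letters, with no measurement of binding.

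Values are given on the deposited log2 scale of normalized reads, on which a step of 1 is a doubling at high levels and 0 reads sits near -0.31. The level of 3 reads, taken as the floor of detection, lay between 1.68 and 2.34 in samples of the first table, at 3.12 in FS022 and at 2.70 in FS023. Reads on genes ranged from 16767287 to 26152339 per sample in the first table and were 6629663 in FS022 and 9662056 in FS023, so the floor covers counting error only and is higher in the 2 shallower grafts. Low values carried an added scatter (SD 1.20 over 4974 genes under 3 in every sample), and differences among values near the floor are not read here. The labelled tissues held their markers: 5 prostate secretion genes (Pbsn, Sbp, Spink3, Msmb and Defb50) summed to between 20.10 and 21.14 in prostate, and 6 fibroblast genes to between 18.72 and 19.23 in MEFs. Grafts were mixed tissue. The summed level of 10 kidney nephron genes was 16.39 in graft FS002, 10.40 in FS003, 17.39 in FS005, 12.81 in FS007 and 17.33 in FS008, and 3.45 to 6.77 in prostate, where 1 to 4 of the 10 were above 3 reads. The MEF samples FS015 to FS018 held prostate secretion genes at 0.0531% to 0.182% of the prostate level (median of the 5 genes), against 0.00019% in FS019 and 8.21e-05% in FS020. By their counts the MEF samples fell into close pairs (FS015 with FS020, FS016 with FS019, FS017 with FS018), each of which differed by more than sampling noise. In bulk tissue, fewer epithelial cells and less RNA per epithelial cell cannot be told apart.

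All 10 genes were higher in grafts than in MEFs, and the 9 of them that could be tested were higher in prostate than in MEFs. In the graft comparison limma called 10 of 10 higher, where 29.9% of 16121 genes tested were called higher and 12% lower. The log2 fold changes of the 10 ran from 4.20 for Esrp2 to 11.57 for Elf3, with a median of 6.98 against 0.26 over all genes. In prostate over MEFs 9 of 9 were called higher, where 27.8% of 14560 genes were called higher and 20.5% lower. Here the log2 fold changes ran from 4.68 for Esrp2 to 11.11 for Ehf, with a median of 8.89 against 0.17. Grhl3 was too low in both prostate and MEFs to be tested across genes. With no filter on low values 9 of 10 were called in prostate over MEFs, where 8515 of 23284 genes were called in either direction. Grhl3 was the gene not called (limma adjusted p = 0.558). A gene near the floor in MEFs passed the filter by its level in the other tissue. It could thus be called higher but not lower, and the counts against MEFs are given as a description. Since many MEF values were at the floor, the differences were also taken with values under 3 reads raised to that level; they then ran from 4.20 (Esrp2) to 10.05 (Elf3) in grafts, with a median of 6.56, and from 4.53 (Ovol2) to 10.88 (Ehf) in prostate, with a median of 8.52.

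Between prostate and grafts the genes split. Grhl1, Ehf and Spdef were called higher in prostate (3 of 10, where 10.3% of 16353 genes were) and Grhl3 and Elf3 lower (2 of 10, where 23% were). Grhl2, Ovol1, Ovol2, Esrp1 and Esrp2 were not called. The median log2 fold change of the 10 was 0.56, against -0.11 over all genes tested. Every graft lay on one side of every prostate for 5 of the 10 genes, the same 5 that were called, and for 37.2% of all genes tested. The calls and this separation rest on the same values.

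**Figure D1:**
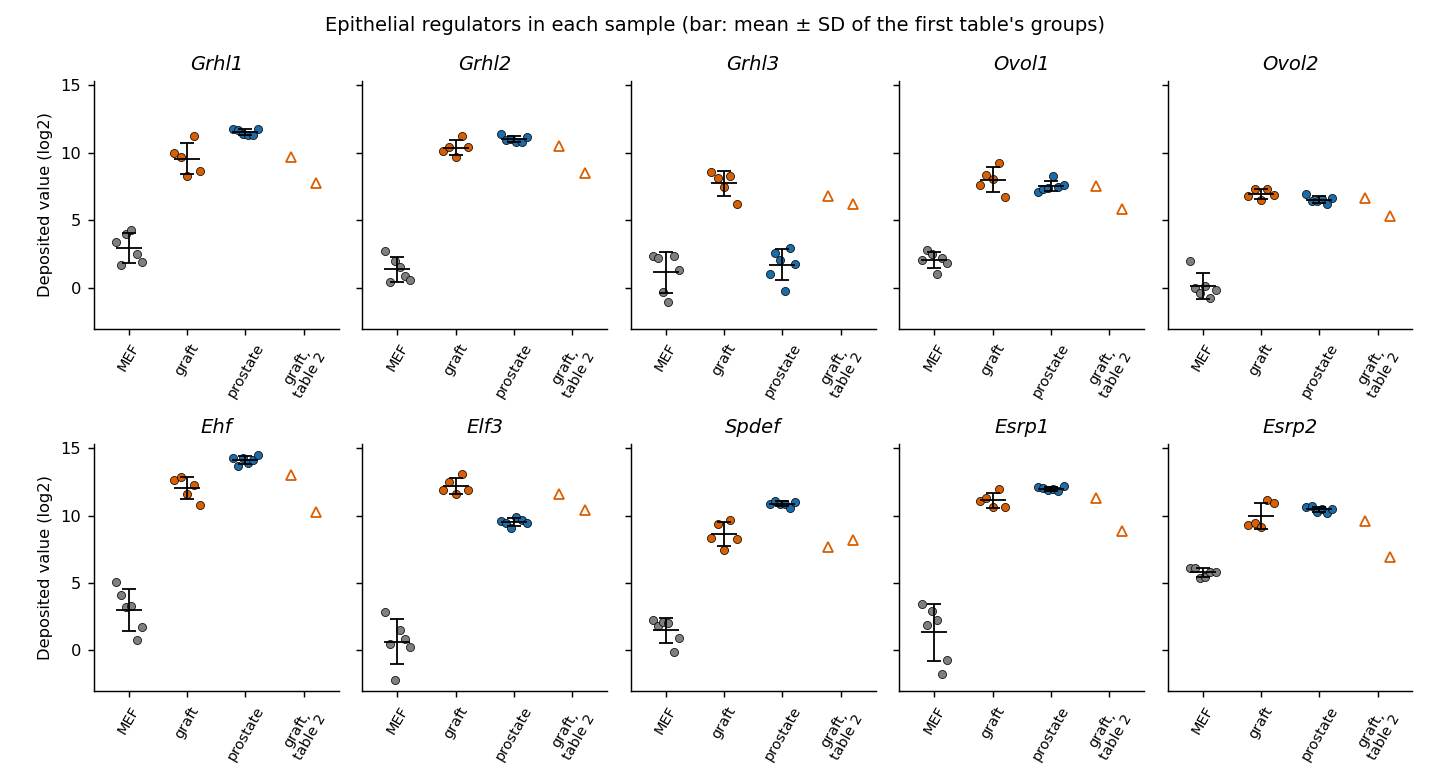
Deposited log2 value (vertical axis) of each gene in every sample, grouped on the horizontal axis as MEFs, grafts and prostates of the first table (filled points, with the mean and SD as a black bar) and the 2 grafts of the separately normalized second table (open triangles). MEF samples lie at or near the bottom of each panel except for Esrp2 (5.41 to 6.13), and Grhl3 is the panel in which prostate lies with the MEFs.

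**Figure D2:**
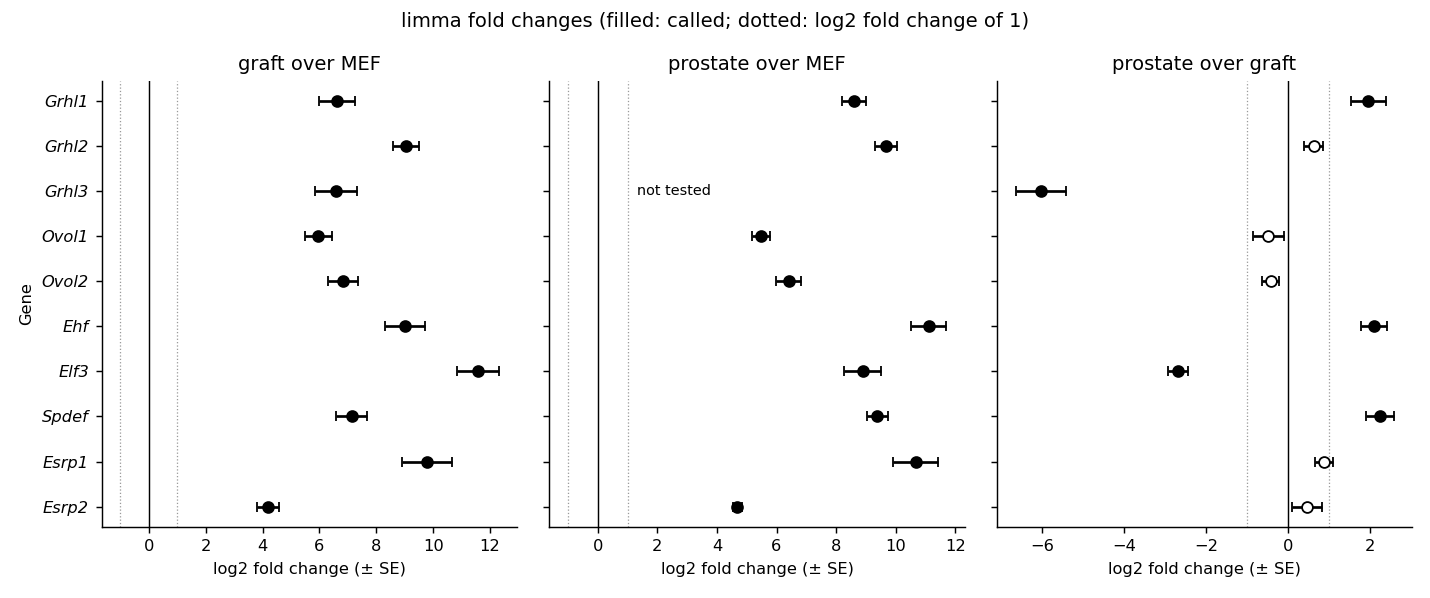
Log2 fold change from limma (horizontal axis, point) with its SE (bar) for the 10 genes (vertical axis) in the 3 comparisons. Filled points were called (adjusted p under 0.05 and a log2 fold change of at least 1, the dotted lines), open points were not, and in the right panel Grhl3 (-6.04) and Elf3 (-2.68) lie left of 0 while Grhl1, Ehf and Spdef lie between 1.97 and 2.25.

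Among the grainyhead-like genes, Grhl2 held the nearest level in grafts and prostate. Its values in grafts were 10.14 in FS002, 10.45 in FS003, 9.70 in FS005, 11.25 in FS007 and 10.43 in FS008, and in prostate they ran from 10.78 to 11.41 (mean 11.03). Graft FS007 lay within the prostate range and the other 4 below, so that the groups overlapped. The log2 fold change of prostate over graft was 0.64 ± 0.23 (SE), with an adjusted p of 0.0342 in limma but below the required fold (exact permutation test over samples, two-sided p = 0.0346). In MEFs Grhl2 ran from 0.42 to 2.76 (median 1.21), with 1 of 6 samples above 3 reads. Grafts of the second table held 10.55 in FS022 and 8.47 in FS023, both far above their own floors.

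Grhl1, a grainyhead-like factor of epidermis and other surface epithelia, was lower and much more variable in grafts. It measured 9.96 in FS002, 9.68 in FS003, 8.27 in FS005, 11.27 in FS007 and 8.69 in FS008. Prostate ran from 11.30 to 11.79 (median 11.54), so that FS007 came close to the lowest prostate and FS005 and FS008 lay far below. The means were 9.57 ± 1.18 (SD, n = 5) and 11.55 ± 0.22 (SD, n = 6), a 3.92-fold difference (limma log2 fold change 1.97 ± 0.43 SE, adjusted p = 0.00258; exact p = 0.00433, the smallest that 5 against 6 samples allow). In MEFs the gene ran from 1.65 to 4.25 (median 2.94) and passed 3 reads in 4 of 6 samples. FS022 and FS023 held 9.69 and 7.75.

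Grhl3 was the gene with the largest difference between prostate and grafts. In grafts it was 8.59 in FS002, 8.10 in FS003, 7.47 in FS005, 8.29 in FS007 and 6.22 in FS008, whereas prostates ran from -0.21 to 2.92 (median 1.90) and passed 3 reads in 2 of 6 samples. MEFs ran from -1.07 to 2.39 (median 1.73) and overlapped with prostate (exact two-sided p = 0.476), both groups lying at the floor. Every graft lay above every prostate and MEF sample. limma gave a log2 fold change of -6.04 ± 0.62 (SE) for prostate over graft (adjusted p = 1.43e-05); with values under 3 reads raised to that level Grhl3 was 41.0-fold higher in grafts. It was also present in both grafts of the second table, at 6.83 in FS022 and 6.20 in FS023. Markers of stratified squamous epithelium, in which Grhl3 is known to act, were also high in grafts. The 10 taken were Krt1, Krt10, Krt6a, Krt13, Krt4, Ivl, Lor, Sprr1b, Sprr3 and Dsg3. Their summed level was 15.45 in FS002, 15.31 in FS003, 13.00 in FS005, 15.60 in FS007 and 11.35 in FS008, against 8.76 to 9.41 in prostate. All 10 were called lower in prostate than in grafts, 7 to 10 of them were above 3 reads in each graft, and the grafts with the lowest squamous sums, FS005 and FS008, also held the lowest Grhl3. In the second table FS022 held the higher Grhl3 and the lower squamous sum (12.03 against 14.04 in FS023). Under quantile normalization 6 of the 10 squamous calls remained, those of Krt1, Krt10, Lor and Sprr1b being lost. The part of squamous tissue in the Grhl3 difference was not tested.

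The Ovol genes were present in grafts and prostate at levels that were not called different. Ovol1 in grafts was 7.65 in FS002, 8.36 in FS003, 8.03 in FS005, 9.28 in FS007 and 6.75 in FS008, and prostates ran from 7.11 to 8.27 (median 7.45). Grafts lay on both sides of the prostates. The log2 fold change of prostate over graft was -0.47 ± 0.38 (SE; limma adjusted p = 0.309; exact p = 0.303). Against MEFs, which ran from 0.98 to 2.76 (median 2.13), Ovol1 was higher by 5.97 ± 0.47 in grafts and by 5.49 ± 0.30 in prostate on the log2 scale (SE).

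Ovol2, needed in the embryo for several epithelia, had the steadiest level of the 10 among grafts. It was 6.77 in FS002, 7.29 in FS003, 6.50 in FS005, 7.31 in FS007 and 6.87 in FS008, an SD of 0.35 where genes of like level had a median SD of 0.76. Prostates ran from 6.20 to 6.94 (median 6.50), a difference of -0.42 ± 0.20 (SE) from grafts (limma adjusted p = 0.101; exact p = 0.0563). Under quantile normalization the direction turned for both Ovol genes, to 0.02 for Ovol1 and 0.55 for Ovol2, so that neither has a settled direction between grafts and prostate. In MEFs Ovol2 ran from -0.79 to 1.97 (median -0.09), and 1 of 6 samples, FS015, was above 3 reads. With MEF values raised to the level of 3 reads Ovol2 was still 31.0-fold higher in grafts and 23.2-fold higher in prostate. FS022 and FS023 held 6.64 and 5.34 of Ovol2 and 7.54 and 5.86 of Ovol1.

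The epithelial Ets genes showed opposite differences. Ehf, a factor of glandular epithelia, was the most abundant of the 10 in prostate, where it ran from 13.69 to 14.49 (median 14.21). In grafts it was 12.64 in FS002, 12.83 in FS003, 11.61 in FS005, 12.24 in FS007 and 10.80 in FS008. Every graft lay below every prostate, and the means differed 4.32-fold (limma log2 fold change 2.11 ± 0.32 SE, adjusted p = 0.000244; exact p = 0.00433).

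Elf3, an Ets factor of gut, airway and bladder lining among others, went the other way. Its values in grafts, 11.88 in FS002, 12.49 in FS003, 11.62 in FS005, 13.11 in FS007 and 11.91 in FS008, all lay above those of prostate, which ran from 9.08 to 9.89 (median 9.51). The difference was -2.68 ± 0.25 (SE) for prostate over graft, or 6.42-fold in favour of grafts (limma adjusted p = 7.31e-06; exact p = 0.00433). Among grafts of the first table FS003 and FS007 held the least kidney signal and the most Elf3, whereas FS022 held more of both than FS023. Gut epithelium genes were also higher in grafts, with summed levels of 9.72 to 12.93 against 4.56 to 6.04 in prostate, and 3 of 5 tested were called. Under quantile normalization 2 of these calls remained, that of Cdx1 being lost. The highest gut sums were near each other, at 12.93 in FS005, the graft with the least Elf3, and 12.88 in FS003, second in Elf3 to FS007. The part of kidney or gut cells in the Elf3 difference was not tested. The second table had Elf3 at 11.57 in FS022 and 10.45 in FS023, again above the level of prostate in the first, although the tables were normalized apart.

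Spdef, a factor of secretory cells in prostate and gut, was lower in grafts, as Ehf was. It was 8.35 in FS002, 9.36 in FS003, 7.45 in FS005, 9.70 in FS007 and 8.28 in FS008 in grafts and ran from 10.55 to 11.10 (median 10.88) in prostate. No graft reached the lowest prostate. The log2 fold change was 2.25 ± 0.34 (SE; limma adjusted p = 0.000207; exact p = 0.00433), a 4.76-fold difference. In the second table Spdef was 7.69 in FS022 and 8.15 in FS023. In MEFs Spdef ran from -0.13 to 2.26 (median 1.92) and Elf3 from -2.19 to 2.87 (median 0.67).

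The splicing regulators were strongly present in grafts. Esrp1 measured 11.07 in FS002, 11.30 in FS003, 10.60 in FS005, 11.97 in FS007 and 10.65 in FS008, and prostates ran from 11.80 to 12.19 (median 11.98). Only FS007 reached the prostate range. The log2 fold change of prostate over graft was 0.88 ± 0.22 (SE) with a limma adjusted p of 0.00471 (exact p = 0.0173), short of the required fold. Without FS007 it was 1.10, with an adjusted p of 0.000114, and Esrp1 was then called. FS022 and FS023 held 11.28 and 8.85.

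Esrp2, which shares targets with Esrp1, split the grafts. It was 9.27 in FS002, 9.42 in FS003, 9.12 in FS005, 11.13 in FS007 and 10.95 in FS008, with FS007 and FS008 above all prostates and the other 3 below them. Prostates ran from 10.17 to 10.68 (median 10.48). The log2 fold change was 0.48 ± 0.36 (SE; limma adjusted p = 0.279; exact p = 0.242), with a graft SD of 0.98 where genes of like level had a median SD of 0.30. Weighting samples by their agreement with the others gave 1.00 (adjusted p = 0.000736), which reached the threshold. The second table had 9.59 in FS022 and 6.93 in FS023. The same 2 sets of grafts also parted across genes at large. Over 10188 genes, the typical offset of a library was -0.081 in FS002, -0.082 in FS003 and -0.081 in FS005. It was 0.009 in FS007 and -0.002 in FS008. The part of this library difference in the Esrp2 split was not tested.

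Esrp2 was also the one gene above 3 reads in all 6 MEF samples, from 5.41 to 6.13 (median 5.83), or 2.88% to 4.83% of the prostate level. This share did not follow the prostate transcripts, which were near 0 in FS019 and FS020 while Esrp2 there was 3.87% and 3.90%. Nfatc3, whose exons overlap those of Esrp2, was high in MEFs (11.24 to 11.46). At its mean density over 6197 exon bases, the 219 shared bases would hold 85.7 to 99.5 normalized reads per MEF sample, against the 40.8 to 68.5 listed for Esrp2. In prostate and grafts the same reckoning gave 44.8 to 62.9, against at least 556 listed for Esrp2. The lincRNA gene 1810019D21Rik had mean values of 10.02 in prostate, 8.12 in grafts and 3.31 in MEFs, the same order as Esrp2, and its reads on the 119 shared bases were not reckoned. How the authors counted reads on overlapping genes is not given in the sources used here, and transcription of Esrp2 in MEFs cannot be told apart from reads of Nfatc3.

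The other genes in MEFs lay at different distances from the trace of prostate transcripts. Ehf stood at 0.176% of its prostate level in FS015, 0.084% in FS016, 0.0431% in FS017 and 0.0444% in FS018; the secretion genes there stood at 0.182%, 0.0531%, 0.0714% and 0.0543%. In FS019 and FS020 Ehf was under 3 reads, and 1 and 0 of the 5 secretion genes were above that level. Esrp1 was likewise above 3 reads in FS015, FS017 and FS018 and at 0 estimated reads in FS019 and FS020. Grhl1 was higher than this trace in FS017 (0.467% against 0.0714%) and FS018 (0.58% against 0.0543%), at 16.3 and 18.9 estimated reads, and in FS019 (0.14% against 0.00019%), at 5.65. Elf3 in FS015 was also above it (0.782% against 0.182%), at 7.68 estimated reads. The part of prostate RNA in these MEF values was not tested. With FS019 and FS020 as the MEF samples, all genes called against MEFs remained called. Of these samples, FS020 held immune markers at a summed level of 12.49, against 7.29 in FS019.

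**Figure D3:**
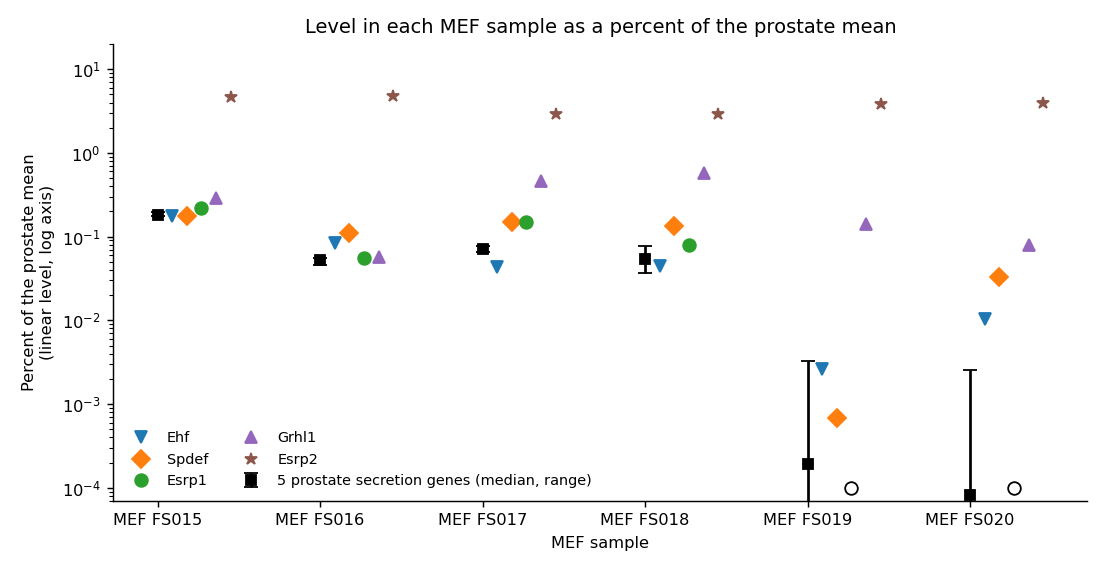
Level of 5 of the genes in each MEF sample as a percent of their prostate mean (vertical log axis), beside the median and range of 5 prostate secretion genes (squares and bars, the bars of FS019 and FS020 reaching 0). Open circles at the bottom mark Esrp1 at 0; Ehf, Spdef and Esrp1 lie near the squares in FS015 to FS018, and Esrp2 lies between 2.88% and 4.83% in all 6 samples.

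Per length of exon the order of the genes differed between tissues. In prostate Ehf led, with 3280 ± 626 normalized reads per kb (SD, n = 6), followed by Spdef (865 ± 105), Grhl1 (862 ± 132) and Esrp1 (653 ± 67.1); Spdef and Grhl1 did not differ beyond their spread. Grhl2, Elf3 and Esrp2 followed with 384, 372 and 327, again within each other's spread, then Ovol1 (65.9), Ovol2 (43.5) and Grhl3 (0.962). In grafts Elf3 led with 2534 ± 1161 (SD, n = 5), followed by Ehf (839 ± 406). Esrp1, Grhl1, Esrp2, Grhl2 and Spdef lay between 376 and 210 with overlapping ranges, and Ovol1 (104), Grhl3 (87.3) and Ovol2 (59.1) were lowest. Elf3 thus stood first of 10 in grafts and sixth in prostate, and Spdef seventh in grafts and second in prostate.

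**Figure D4:**
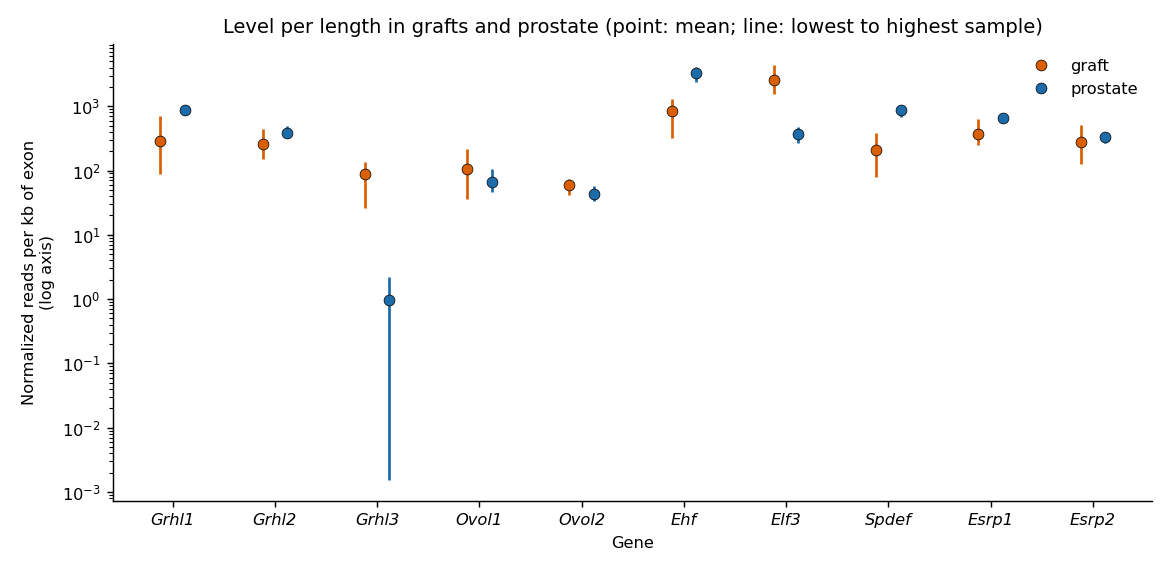
Normalized reads per kb of annotated exon (vertical log axis) for each gene (horizontal axis) in grafts and prostate, with the mean as a point and the lowest to highest sample as a line. Elf3 (2534 against 372) and Grhl3 (87.3 against 0.962) are higher in grafts, while Ehf, Spdef and Grhl1 are higher in prostate with no overlap of the lines.

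At levels well above the floor, the difference between 2 genes within a sample is the same whatever the scaling factor of that sample. For 5 pairs of related genes, picked after the values were seen, these differences are given as a description with no test. Ehf minus Elf3 was 0.76 in FS002, 0.34 in FS003, -0.01 in FS005, -0.87 in FS007 and -1.12 in FS008 and ran from 4.05 to 5.20 in prostate, with every prostate above every graft. The 2 grafts of the second table had 1.42 and -0.20. Grhl1 minus Grhl2 was -0.82 ± 0.77 in grafts and 0.52 ± 0.15 in prostate (SD), again with no overlap.

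The other 3 differences overlapped. Ehf minus Spdef was 3.40 ± 0.85 in grafts and 3.26 ± 0.37 in prostate, so that the group means of these Ets genes were lower in grafts by like amounts. Single grafts lay on both sides of the prostates, which ran from 2.60 to 3.58. They were 4.29 in FS002, 3.47 in FS003, 4.16 in FS005, 2.54 in FS007 and 2.52 in FS008, with FS003 within the prostate range. The second table had 5.30 in FS022 and 2.09 in FS023. Ovol1 minus Ovol2 was 1.06 in grafts and 1.01 in prostate. Esrp1 minus Esrp2 was 1.14 ± 0.90 against 1.54 ± 0.15, and in FS008 Esrp2 exceeded Esrp1 (-0.30), which it did in no other graft or prostate.

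**Figure D5:**
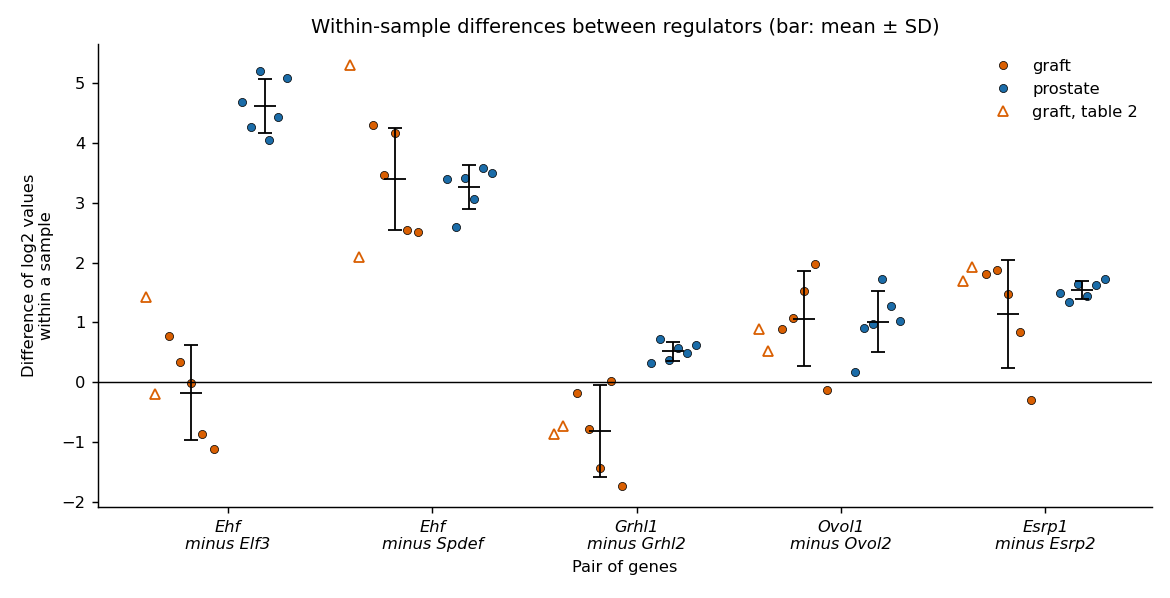
Difference between the log2 values of 2 genes within each sample (vertical axis) for 5 pairs of genes (horizontal axis), with each graft and prostate of the first table as a point, their mean and SD as bars, and the grafts of the second table as open triangles. Grafts and prostates separate for Ehf minus Elf3 and Grhl1 minus Grhl2, and overlap for the other 3 pairs.

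The SD among grafts was larger than that among prostates for 9 of the 10 genes, the exception being Grhl3, which was at the floor in prostate. FS007 held the highest value of the 5 grafts for 8 of the 10 genes and lay on average 0.90 above the graft mean. FS005 was lowest for 7 genes and FS008 for the other 3 (Grhl3, Ovol1 and Ehf), and these 2 grafts held the highest kidney sums (17.39 and 17.33). The 2 grafts lowest in kidney genes, FS003 and FS007, were the 2 above the graft mean on average, by 0.27 and 0.90. In the second table the order was the other way, FS022 holding more of 9 of the 10 genes than FS023 and a higher kidney sum (15.19 against 11.52), with Spdef (7.69 and 8.15) the exception. The summed level of 19 epithelial junction genes ran from 15.59 to 16.64 in grafts of the first table. It was 15.40 in FS022 and 13.57 in FS023. The part of kidney tissue in these differences was not tested.

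Genes on which these factors act, or which belong to their families, were compared as lists. Of 19 junction and surface genes that Grhl, Ovol or epithelial Ets factors are known to regulate, 19 were called higher in grafts than in MEFs and 19 higher in prostate than in MEFs, against the backgrounds of 29.9% and 27.8% given above. Those near the floor in MEFs could be called in this direction only. Epcam, a surface adhesion protein, led both, with 10.16 in grafts and 10.66 in prostate on the log2 scale, followed by the cadherin gene Cdh1 in grafts (10.04) and the protease gene Prss8 in prostate (10.14). Between prostate and grafts limma called 2, Marveld2 (1.32) and Ap1m2 (1.14), both higher in prostate, with a list median of 0.22; at an unadjusted p under 0.05, 3 were higher and 1 lower. The 6 mesenchymal repressors Zeb1, Zeb2, Snai1, Snai2, Twist1 and Twist2 were all called lower than in MEFs in both tissues, by up to 3.83 in grafts and 4.93 in prostate, both for Snai1. Zeb2 (-1.18) and Snai1 (-1.10) were called lower in prostate than in grafts, and Snai1 turned to 0.04 under quantile normalization.

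Other members of the same families were called in both directions. Of 18 other Ets genes tested in prostate over MEFs 1 was called higher, the epithelial gene Elf5 (8.77), and 8 lower, led by Erg (-3.03) and Ets1 (-2.85), which are expressed in endothelial and other non-epithelial cells. In grafts over MEFs 3 of 19 were higher, led by Elf5 (7.07) and the immune-cell gene Spib (5.99), and 5 lower, led by Elk3 (-2.14) and Elf4 (-1.81). Between prostate and grafts 7 of 19 were called in limma, each lower in prostate, where 23% of all genes were called lower (8 lower and 0 higher at an unadjusted p under 0.05), led by Spib (-4.26) and Etv5 (-2.39), of which 3 remained called under quantile normalization. Immune markers moved the same way, with 4 of 4 tested called lower in prostate than in grafts. Their median summed level was 12.79 in grafts against 10.92 in prostate, and their part in this was not tested. MEF samples differed in these markers. The immune sum was 12.68 in FS015 and 12.49 in FS020, above the lowest graft (12.27 in FS008). It ran from 6.31 to 7.29 in the other MEF samples. The part of immune cells in the comparisons with MEFs was not tested. The list of other grainyhead/CP2 and Ovol genes left 3 CP2 genes to test, Tfcp2, Tfcp2l1 and Ubp1. Tfcp2l1, a factor of kidney and other ducts, was called higher than in MEFs in grafts (6.52) and prostate (6.58). Between the tissues 0 of 3 were called by limma, and 2 were higher in prostate at an unadjusted p under 0.05.

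Of 12 other regulators of epithelial and mesenchymal exon choice, Rbm47, an epithelial RNA-binding protein, was the one called higher than in MEFs, by 4.98 in grafts and 5.36 in prostate. Called lower than in MEFs were Rbfox2 (-1.47) and Mbnl2 (-1.25) in grafts and 3 genes in prostate, led by Qk (-2.21) and Rbfox2 (-2.15). Between the tissues Mbnl3 was higher in prostate (1.41), and Rbfox1 (-2.60) and Qk (-1.75) were lower. Under quantile normalization Rbfox1 in that comparison (-1.66, limma adjusted p = 0.113) and Mbnl2 in grafts over MEFs (-0.76) were no longer called. Among 7 genes whose exons Esrp proteins are known to select, total Cd44 was called lower than in MEFs in grafts (-2.93) and prostate (-4.16), and lower in prostate than in grafts (-1.23). Fgfr2 was lower than in MEFs in prostate (-1.30). These are values per gene, and the exons used were not measured.

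The remaining marker lists were compared in prostate over grafts to show what else the grafts held. All 10 kidney genes were called lower in prostate, urothelial genes were called higher for 2 and lower for 1 of 5, and basal and luminal keratins and Trp63 were called higher for 1 of 6. All 5 prostate secretion genes were called higher in prostate, with summed levels of 9.18 to 12.35 in grafts. In MEFs these sums were 9.88 to 11.66 in FS015 to FS018, 2.29 in FS019 and 1.17 in FS020. In grafts over MEFs 1 of the 5 was called higher. For prostate over grafts limma called 0 of 6 fibroblast genes, with 1 higher in prostate at an unadjusted p under 0.05.

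For each gene the 2 others with the nearest profile over the 17 samples of the first table were sought, by the root mean square difference in log2 after each gene's mean was subtracted. Grhl2 lay nearest to Rab25 (0.46), a small GTPase of polarized epithelia, and Lrrc26 (0.54). Ovol1 lay nearest to the desmosome gene Dsp (0.48) and Spnb3 (0.54), and Ovol2 to the receptor gene Erbb3 (0.46) and Wnt7b (0.51). Spdef was nearest to Sidt1 (0.46) and Cadps2 (0.52), and Ehf to Oit1 (0.69) and the protease gene Tmprss2 (0.70).

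The remaining profiles had nearest genes as follows. Esrp2 had the closest of all, Rab11fip1 (0.37) and Mfsd6 (0.38). Esrp1 was nearest to Tspan1 (0.73) and Prss8 (0.77), and Grhl1 to Gyltl1b (0.71) and Mlph (0.80). Elf3 and Grhl3, the genes higher in grafts, had no gene as close: Mal (1.01) and Tjp3 (1.19) for Elf3, and Nkx6-2 (1.07) and Gsta4 (1.10) for Grhl3. The profiles share the 17 libraries and their depth. Values at the floor, with their added scatter, also enter these distances. Grhl3 passed 3 reads in 2 of 6 prostates and 3 of 6 MEF samples. Elf3 passed that level in 1 of 6 MEF samples, as did Grhl2 and Ovol2, and Esrp2 in all 6. The part of this scatter in the distances was not tested.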

How the data were processed

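RNA libraries (TruSeq v2, single-end) of 19 samples were sequenced by the authors. The authors' processing notes name bcl2fastq 1.8.4, TopHat, Cufflinks and DESeq with mouse build mm9. The deposited values are gene levels on a log2 scale, in 2 tables normalized separately by the authors. On the linear scale, high values come to a whole number of reads, scaled by a factor particular to the library, with 1.611 added, the form of the variance stabilization in the authors' tool DESeq; low values carry added scatter, so no counts were recovered and no count model was run. How rat reads were handled is not given in the sources used here.

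Reads and levels per kb (GENCODE M1 exons, mm9) were estimated by inverting this form. Groups were taken from the labels. Pairs of groups of the first table were compared with limma 3.58.1 (lmFit, eBayes with trend; R 4.3.3) over genes averaging 10 or more on the linear scale, and a gene was called when its Benjamini-Hochberg adjusted p over all genes tested was under 0.05 and its log2 fold change was 1 or more in size. Single genes were also compared by exact two-sided permutation tests (scipy 1.17.1), whose smallest p is 0.00216 for 6 against 6 samples and 0.00433 for 5 against 6. The fits were tested on simulated data. The second table entered no test.

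The genes, the gene lists and the marker lists were chosen with earlier results of these data known. All 10 genes are named, with the 2 nearest profiles of each. From each other list, up to 2 called genes with the largest change in each direction are named. Further genes are named to say what a list held or which calls quantile normalization removed. A list is described by its counts and median, with no test. Some genes of these lists, and some factors and an allele used in the study, are not reported here. Alternatives were a pseudocount of 1, other filters, quantile normalization, a fit over all 17 samples, no minimum fold, no trend, sample weights, and leaving out samples.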

Additional observations from a re-analysis of the deposited data

Results flagged for a closer look

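Of 30 sets of values (10 genes in 3 groups), 1 held a sample set apart from the others by Dixon's criterion, where chance gives 1.5. It was Ovol2 in MEF sample FS015, at 1.97, with the next highest MEF sample at 0.16. This is 3.26 estimated reads, near the floor, in the MEF sample with the most prostate secretion transcripts (0.182% of the prostate level).

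The 2 renal grafts of the second table, by the study's counts those without the further factors, entered no comparison. All 10 genes were above the level of 3 reads in both, from 5.34 (Ovol2 in FS023) to 12.99 (Ehf in FS022).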

How the results depend on the processing

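The number of genes called ranged from 8 to 9 in prostate over MEFs over 22 alternatives (8 with a linear mean of at least 50, which left 8 tested), stayed at 10 in graft over MEFs over 21, and ranged from 5 to 7 in prostate over graft over 20. Of the values of single genes under the alternatives, 602 kept their direction and their side of the threshold, 4 passed it newly and 2 turned. The 2 were Ovol1 (0.022, adjusted p = 0.966) and Ovol2 (0.55, adjusted p = 0.195) in prostate over graft under quantile normalization; the cause was not tested. The 4 were Grhl2 and Esrp1 with no minimum fold, Esrp2 with sample weights and Esrp1 without graft FS007. Quantile normalization moved the median fold change of all genes in prostate over graft from -0.11 to 0.12 and the share of calls that were higher from 30.9% to 53.9%; it gave 49.7% in place of 57.6% in prostate over MEFs and 45.4% in place of 71.3% in graft over MEFs. Averaging the close MEF pairs, and scaling grafts and prostates to the mean of Cdh1, Epcam and Krt8, were chosen after seeing the data and changed no call of the 10 genes. No paired analysis was possible because the labels give no replicate numbers shared between groups. With 5 or 6 samples per group and no counts, genes near 3 reads, such as Grhl3 in prostate, could not be ranked.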
